A study of Rattus norvegicus with 30 samples.

Results

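The genes described here are 10 transcripts tied to alternative activation and type 2 responses: the arginases Arg1 and Arg2, the secreted or crosslinking effectors Retnla, Chi3l1, Chia and Tgm2, the receptor chains Il4r, Il13ra1 and Il13ra2, and the transcription factor Stat6. They were chosen by name, through array probes whose RefSeq transcript belongs to one of these symbols. Earlier results of these data were known at the choice, so counts among them are descriptions. All 10 were found on the array, through 12 probes, among 26913 genes, and 9 of them were among the 18421 genes bright enough to be tested.

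Interleukin-4 and interleukin-13 bind receptors built from Il4r with Il13ra1, and Il13ra2 is known as a decoy that binds interleukin-13. Both cytokines act through Stat6, which in macrophages is known to raise Arg1, Retnla and chitinase-like genes, a state called alternative activation, and in airway epithelium raises other secreted proteins. Several of these effectors, Chi3l1 and Arg1 among them, also respond to signals other than these cytokines.

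RNA came from whole lung of adult male Wistar Unilever rats (outbred strain HsdCpb:WU), 8 weeks old, 1 array a rat. They breathed copper oxide (CuO) nanoparticles through the nose only, at the equivalent of 6 h a day on 5 consecutive days, at 13.2 mg/m3 (high dose) or 3.3 mg/m3 (low dose), or clean air, which the labels write as dose 0 while also giving CuO NPs as the treatment. Lungs were taken 1 day (day 6) or 22 days (day 28) after the last exposure, and each of the 6 groups holds 5 rats. The comparisons ask how far each gene moved with dose on day 6, and whether the difference was still there on day 28. Each rat's RNA was labelled with Cy5 and hybridised beside a Cy3 reference RNA that was the same for all arrays; the labels name a mouse reference in the labelling protocol and a rat reference of 14 cell lines elsewhere. Values are log2 ratios of Cy5 over Cy3, so 1 unit is a doubling against the reference, and a level can be compared between rats but not between genes. In whole lung, fewer cells of a type and less RNA per cell cannot be told apart.

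The 30 arrays held 62976 spots each, with a median Cy5 brightness of 216 to 432 scanner units and 59.5% to 68.4% of probes well above background. The number of arrays limits the precision. Arrays of a group correlated at r = 0.918 to 0.982 across probes. Rat 4 of the air group on day 6 stood apart in heart muscle markers (mean log2 ratio 3.49, against -0.57 to 0.44 in the other 4) and in lung epithelium markers (5.86, against 5.05 to 5.38). Its Arg2, Chi3l1 and Il13ra1 values were the highest and its Il4r and Tgm2 values the lowest of the air rats of that day. Results without rat 4 stand beside those they change. The arrays were placed on 4 slides by a number in the scanner output names, not by the labels. Each slide held several groups, and slide 3 held no air rat of day 28. Differences within slides thus cover 4 slides on day 6 and 3 against air on day 28. A scan number in the same names ran with the slide number, so slide and scan cannot be told apart.

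On day 6, Chi3l1, Retnla and Chia rose at both doses, Arg1 and Il13ra1 rose at the high dose, and Tgm2 fell at the high dose. At the high dose, limma with Benjamini-Hochberg adjustment over all genes (adjusted p below 0.05, used throughout) called 5 of the 9 tested genes higher and 1 lower, where 36.5% of all genes were called (21.1% higher, 15.4% lower). Their median log2 fold change was 0.37, against 0.01 over all genes. With the low dose 3 of 9 were higher and none lower, where 6.72% of all genes were called, and the median was 0.19 against 0.00. By day 28 limma called none of the 9 at either dose. The share of calls that were higher, over all genes, was 57.7% at the high dose on day 6 and between 43.6% and 49.1% under 4 other scalings (Agilent's processed signals, median centring, Cy5 alone, the authors' table); at the low dose it was 74% and, with Cy5 alone, 61.6%.

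**Figure D1:**
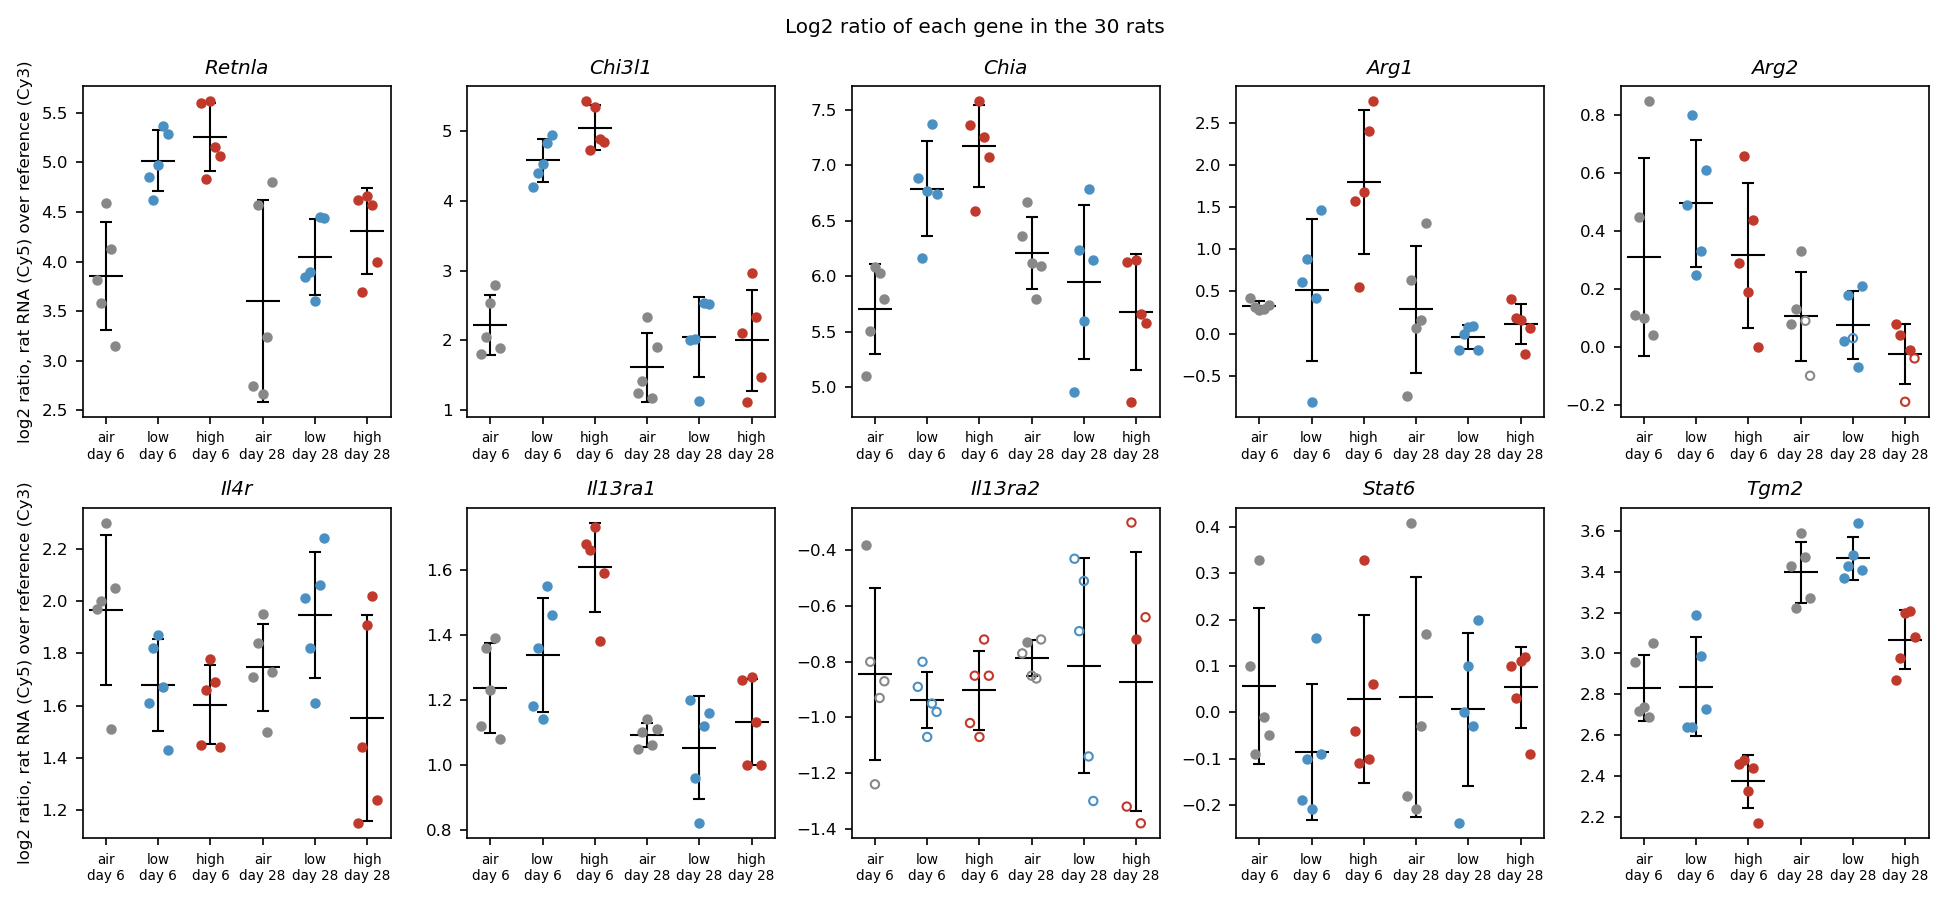
Log2 ratio of rat RNA (Cy5) over reference RNA (Cy3) of each gene, 1 point a rat, 5 rats in each of 6 groups (air, low or high dose, day 6 or 28), with bars at the group mean ± SD. Filled points were well above background and open points were not. On day 6 the exposed rats lie above all air rats for Retnla, Chi3l1 and Chia, while Tgm2 at the high dose lies below them (means 2.38 and 2.83).

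The RefSeq promoter windows (GRCr8, 250 bases before to 50 after the annotated start) of the 3 secreted effectors that rose at both doses are shown because these genes moved together; windows were matched for 6 of the 10 genes, and those of Arg1, Arg2, Tgm2 and Il13ra2 are named only. 2 Stat motifs were searched, TTC and GAA with 4 bases of any kind between them (the spacing known for Stat6) and TTCNNNGAA (that of other Stat proteins). Both read the same on either strand. Neither set of letters is in the 6 windows; they are in 7.28% and 8.87% of 33469 windows of this length. After the values were seen, TTGCNNAA (a C/EBP-type motif) and TATAAA were also searched on both strands. Only the Chia window held them, each once, and the capitals mark them, TTGCTTAA at position -77 and TATAAA at -23 from the start. They are in 10.6% and 14.2% of all windows. A match is a description of the letters only.
Retnla, chr11:65426137-65426436, minus strand: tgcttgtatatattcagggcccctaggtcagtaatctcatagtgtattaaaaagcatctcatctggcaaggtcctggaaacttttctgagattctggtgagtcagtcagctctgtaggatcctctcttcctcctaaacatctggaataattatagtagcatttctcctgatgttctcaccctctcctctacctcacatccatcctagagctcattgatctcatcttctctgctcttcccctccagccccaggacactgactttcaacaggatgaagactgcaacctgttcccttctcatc
Chi3l1, chr13:48193589-48193888, plus strand: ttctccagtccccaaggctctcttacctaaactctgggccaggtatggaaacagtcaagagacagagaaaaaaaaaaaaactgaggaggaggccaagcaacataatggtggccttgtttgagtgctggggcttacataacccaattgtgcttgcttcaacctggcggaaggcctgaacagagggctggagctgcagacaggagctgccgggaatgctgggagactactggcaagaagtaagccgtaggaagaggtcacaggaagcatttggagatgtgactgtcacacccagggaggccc
Chia, chr2:196302437-196302736, plus strand: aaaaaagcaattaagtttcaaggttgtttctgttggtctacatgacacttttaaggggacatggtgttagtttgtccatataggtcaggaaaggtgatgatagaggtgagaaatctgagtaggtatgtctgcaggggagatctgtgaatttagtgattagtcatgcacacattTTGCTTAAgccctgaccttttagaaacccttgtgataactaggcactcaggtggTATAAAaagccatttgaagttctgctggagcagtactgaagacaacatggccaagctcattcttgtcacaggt

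Chi3l1 encodes a secreted chitin-binding protein without chitinase activity, made by macrophages, neutrophils and epithelium. On day 6 its log2 ratios were 1.81, 2.05, 2.53, 2.80 and 1.89 in the air rats, 4.20, 4.40, 4.53, 4.83 and 4.95 at the low dose and 5.43, 4.73, 5.35, 4.88 and 4.84 at the high dose. Every exposed rat was above every air rat, and the 2 dose groups overlapped. The high dose group exceeded air by 2.83 ± 0.29 (log2 fold change ± SE, 7.11-fold, adjusted p = 1.39e-08) and the low dose group by 2.37 ± 0.29 (5.16-fold, adjusted p = 2.37e-06). Within slides the high dose difference was 2.63 to 2.88 and the low dose difference 1.94 to 2.55. The doses themselves differed by 0.46 ± 0.29, which did not pass (adjusted p = 0.363).

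Retnla, a small secreted cysteine-rich protein used as a marker of alternatively activated macrophages and also made by airway epithelium, had log2 ratios on day 6 of 3.81, 3.58, 4.59, 4.13 and 3.15 in air. They were 4.85, 4.62, 4.97, 5.37 and 5.29 at the low dose and 5.60, 4.83, 5.62, 5.16 and 5.07 at the high dose. The lowest exposed rat lay just above air rat 3, the highest control. The difference from air was 1.40 ± 0.33 at the high dose (2.64-fold, adjusted p = 0.00143; 1.03 to 1.54 within slides) and 1.17 ± 0.33 at the low dose (2.24-fold, adjusted p = 0.0298; 0.77 to 1.27 within slides). The low dose call was lost when air rat 1, 2 or 5 or low dose rat 50 or 51 was left out (adjusted p 0.0594 to 0.109) and with the authors' deposited table (0.94 ± 0.33, adjusted p = 0.0875), as well as with median centring (1.08, adjusted p = 0.0696), without background correction (1.04, adjusted p = 0.0616) and with Agilent's processed signals (0.34, adjusted p = 0.489). The doses differed by 0.24 ± 0.33 (adjusted p = 0.733).

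Chia encodes acidic mammalian chitinase, a secreted enzyme that degrades chitin and is abundant in rodent lung. Its log2 ratios on day 6 were 5.10, 5.51, 6.08, 6.03 and 5.80 in air, 6.89, 6.17, 6.77, 7.37 and 6.74 at the low dose and 7.36, 6.59, 7.58, 7.26 and 7.08 at the high dose. No exposed rat overlapped the air group, and low dose rat 48 was the nearest to it. The difference from air was 1.47 ± 0.28 at the high dose (2.77-fold, adjusted p = 0.000148; 1.14 to 1.66 within slides) and 1.08 ± 0.28 at the low dose (2.12-fold, adjusted p = 0.0162; 0.72 to 1.37 within slides). Leaving out air rat 1 or low dose rat 50 ended the low dose call (0.93 and 0.94, adjusted p = 0.0617 and 0.0606), as did median centring (0.93 ± 0.27, adjusted p = 0.0534) and Agilent's processed signals (0.13 ± 0.27, adjusted p = 0.835). The high dose call was also lost with processed signals (0.30 ± 0.27, adjusted p = 0.41).

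For these 3 genes the reference channel moved as well as the rat channel, although the reference RNA was the same on every array. Median Cy3 brightness of Retnla, after subtraction of local background, was 64.5 in air, 325 at the low dose and 769 at the high dose on day 6, while Cy5 went from 2810 to 28800 and 43100. Cy3 of Chia was 55, 205 and 431 in the same order, and that of Chi3l1 33.8, 71 and 117, with none of the 5 air arrays well above background in Cy3. Fitted alone in limma, Cy3 rose at the high dose 6.33-fold for Retnla (adjusted p = 3.77e-10), 4.01-fold for Chia (9.67e-07) and 2.25-fold for Chi3l1 (1.33e-10). Over all genes Cy3 differed at the high dose in 0.733%, and in 27 genes it rose by more than 2-fold, all of which also rose by more than 2-fold in Cy5. Cy3 of Arg1 did not differ in that test (fold 0.961, adjusted p = 1).

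The size of the change of Retnla, Chia and Chi3l1 differed with the channels read. Cy5 alone rose at the high dose 14.5-fold for Retnla (log2 3.86 ± 0.37, adjusted p = 3.12e-09), 9.35-fold for Chia (3.23 ± 0.31, adjusted p = 2.21e-09) and 16.1-fold for Chi3l1 (4.01 ± 0.27, adjusted p = 1.86e-12). The Cy5 rises at the low dose were 6.55-fold, 4.71-fold and 9.19-fold in the same order. With Cy5 alone the high dose also exceeded the low dose for all 3, by 2.21-fold for Retnla (adjusted p = 0.0403), 1.99-fold for Chia (0.0296) and 1.76-fold for Chi3l1 (0.0407). With Agilent's processed signals in both channels the high dose ratios moved by less: 0.36 ± 0.27 for Retnla (adjusted p = 0.304), 0.30 ± 0.27 for Chia (0.41) and 0.91 ± 0.24 for Chi3l1 (0.00411). The part of the Cy3 rise in the ratios was not tested.

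**Figure D2:**
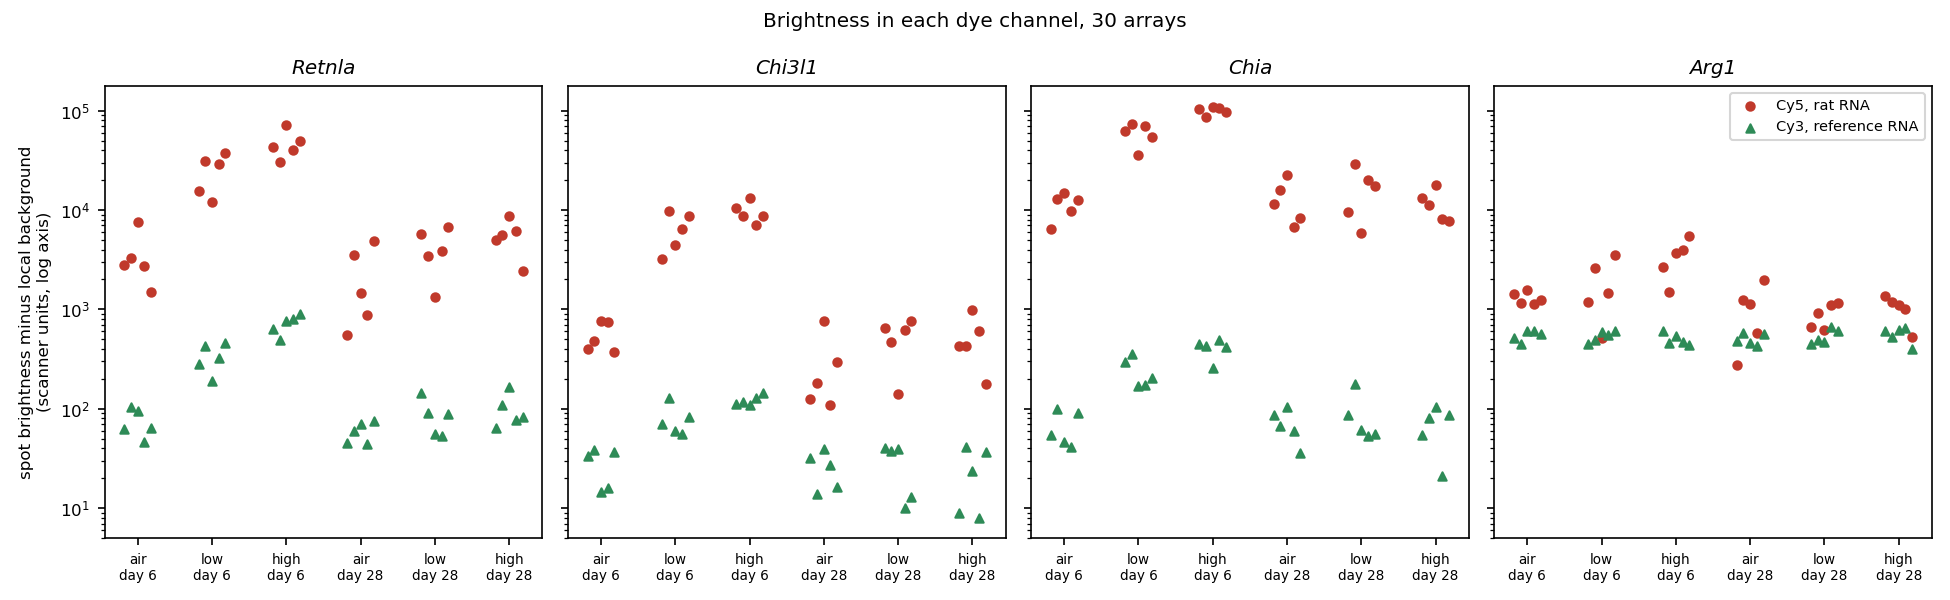
Spot brightness minus local background on a log axis, in scanner units, for the rat RNA (Cy5, circles) and the reference RNA (Cy3, triangles), 1 pair of points an array, 5 arrays a group. For Retnla, Chi3l1 and Chia both channels are higher in the exposed groups of day 6, with median Cy3 of Retnla at 64.5 in air and 769 at the high dose, whereas Cy3 of Arg1 stays between 398 and 662 on all 30 arrays.

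Arg1, the cytosolic arginase that splits arginine into ornithine and urea, passed the test at the high dose and not at the low dose. Its log2 ratios on day 6 were 0.42, 0.31, 0.28, 0.29 and 0.34 in air and 1.57, 0.55, 1.68, 2.41 and 2.76 at the high dose. All high dose rats were above all air rats, with rat 76 close to them and rat 79 the highest. The difference was 1.46 ± 0.35 (2.76-fold, adjusted p = 0.0015), and 0.17 to 2.27 within slides. At the low dose the values were 0.61, 0.89, -0.81, 0.42 and 1.47, so that 1 rat lay far below air, 1 level with its highest rat and 3 above it, with a difference of 0.19 ± 0.35 (adjusted p = 0.814).

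The spread of Arg1 was uneven between groups: the SD was 0.05 in air and 0.84 and 0.85 at the low and high dose on day 6, and 0.75 in air on day 28. Between the doses on day 6, 2 of the 9 genes, Arg1 and Il13ra1, were higher at the high dose and 1, Tgm2, lower, where 11.9% of all genes were called (8.01% higher, 3.87% lower; 67.5% of calls were higher, against 53.8% to 55.9% with the authors' table, Cy5 alone or processed signals). For Arg1, high against low dose gave 1.28 ± 0.35 (adjusted p = 0.0152), the groups overlapped, and the difference ran from -0.34 to 1.97 within slides. That call was lost without high dose rat 78 (1.12, adjusted p = 0.0526), without rat 79 (1.03, 0.072), without low dose rat 49 (0.94, 0.0695), and with only the 2 groups in the fit (adjusted p = 0.0905). Across doses on day 6, Arg1 thus ran from 0.33 ± 0.05 in air and 0.52 ± 0.84 at the low dose, which did not differ beyond their spread, to 1.79 ± 0.85 at the high dose (mean ± SD, n = 5 each).

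Arg2, the mitochondrial arginase, showed no such difference. Its group means on day 6 were 0.31 ± 0.34 in air, 0.50 ± 0.22 at the low dose and 0.32 ± 0.25 at the high dose (mean ± SD, n = 5 each), and rat 4 held the highest air value, 0.85. The high dose difference was 0.01 ± 0.13 (adjusted p = 0.966) and the low dose difference 0.19 ± 0.13. Its probe was dim, well above background in Cy5 on 25 of 30 arrays. In Cy3 it was so on 2 of 5 air, 2 of 5 low dose and 1 of 5 high dose arrays of day 6. At this signal a change could be missed.

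Among the receptor chains, Il13ra1, which pairs with Il4r to bind interleukin-13, rose slightly. On day 6 its log2 ratios were 1.12, 1.36, 1.23, 1.39 and 1.08 in air and 1.68, 1.66, 1.73, 1.38 and 1.59 at the high dose. Rat 78 lay within the air range and the other 4 above it. The difference was 0.37 ± 0.09 (1.29-fold, adjusted p = 0.00173; 0.12 to 0.56 within slides), against 0.10 ± 0.09 at the low dose. A second, dimmer probe of Il13ra1 gave 0.13 ± 0.24 (adjusted p = 0.78 over all probes), and the mean of both probes did not pass (0.25, adjusted p = 0.126), nor did the brighter probe after median centring (0.26, adjusted p = 0.241). High against low dose stood at the threshold (0.27 ± 0.09, adjusted p = 0.0491) and was lost under 9 of 11 other settings and without high dose rat 75, 76, 77 or 79 or low dose rat 47, 48 or 49.

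Il4r, the signalling chain shared by both cytokines, had log2 ratios of 1.97, 2.00, 2.30, 1.51 and 2.05 in air and 1.45, 1.66, 1.78, 1.69 and 1.44 at the high dose on day 6. Air rat 4 lay within the high dose range and the other 4 air rats above it. The difference was -0.36 ± 0.15 and did not pass (adjusted p = 0.068; -0.51 to -0.06 within slides). Without rat 4 it was -0.47 ± 0.15 (adjusted p = 0.0164), making 7 of the 9 genes called, and it also passed with Cy5 alone (-0.51 ± 0.18, adjusted p = 0.0237), with the authors' deposited table (-0.47, adjusted p = 0.0304) and as the mean of both probes (-0.40, adjusted p = 0.0249). The second Il4r probe gave -0.44 ± 0.18 (adjusted p = 0.0752 over all probes).

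Il13ra2 was well above background on 3 of 30 arrays, 1 each among the air rats of day 6, the air rats of day 28 and the high dose rats of day 28, and it was not tested. Its median Cy5 brightness after background subtraction was 14 in air and 12.5 at the high dose on day 6, so a change was not detectable at this signal.

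Stat6, the transcription factor downstream of these receptors, stayed within its spread. Its group means on day 6 were 0.06 ± 0.17 in air, -0.09 ± 0.15 at the low dose and 0.02 ± 0.18 at the high dose (mean ± SD, n = 5 each). The high dose difference was -0.03 ± 0.11 (adjusted p = 0.852). The array reads the Stat6 transcript and not its phosphorylation.

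Tgm2, the tissue transglutaminase that crosslinks proteins and is also abundant in endothelium, was the gene of the 9 that fell. Its log2 ratios on day 6 were 2.96, 2.72, 2.74, 2.69 and 3.05 in air, 2.64, 2.64, 3.19, 2.99 and 2.73 at the low dose and 2.46, 2.48, 2.33, 2.44 and 2.17 at the high dose. All high dose rats lay below all other rats of that day, and the low dose rats straddled the air rats. The high dose group was below air by 1.37-fold (log2 -0.46 ± 0.10, adjusted p = 0.000854; -0.52 to -0.24 within slides) and below the low dose by the same log2 -0.46 ± 0.10 (adjusted p = 0.00302). The low dose difference was 0.00 ± 0.10 (adjusted p = 0.995). Beside it, 5 of 10 endothelial markers fell at the high dose and none rose (median -0.42), where 15.4% of all genes were lower and 21.1% higher. The mean over the list was 2.72 to 3.32 per high dose rat against 3.36 to 3.64 per air rat. This list was drawn up knowing earlier results of these data. The part of these markers in the Tgm2 result was not tested.

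**Figure D3:**
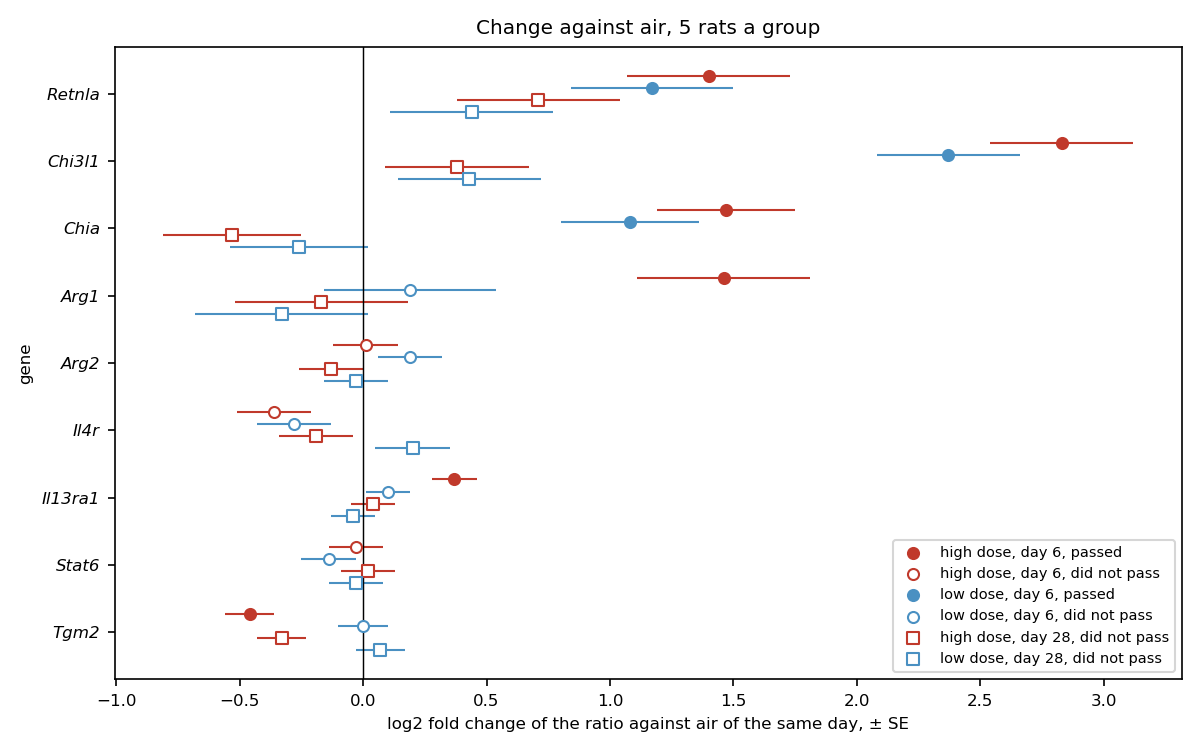
Log2 fold change of the ratio against air of the same day, ± SE, for the 9 tested genes, with 5 rats a group. Filled symbols passed an adjusted p of 0.05. The filled points are on day 6 alone, from 2.83 for Chi3l1 to -0.46 for Tgm2 at the high dose, and the day 28 squares are all open.

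On day 28 the rises of day 6 were no longer called. Limma passed 0 of the 9 genes at the high dose (0.185% of all genes called, 0.076% higher) and 0 at the low dose (0.0109%); at an unadjusted p below 0.05 these counts were 2 (Retnla and Tgm2) and 0, and with trend and robust settings of limma also 0 and 0. Chi3l1 ratios were 1.25, 1.41, 2.34, 1.17 and 1.90 in air and 2.11, 1.12, 2.96, 2.34 and 1.47 at the high dose, and the groups overlapped. Its difference was 0.38 ± 0.29 (adjusted p = 0.538), and -1.22 to 0.46 within 3 slides. Cy3 of Chi3l1 was well above background on 0 of 5 air, 1 of 5 low dose and 2 of 5 high dose arrays of that day. For Chi3l1 the high dose difference itself changed between the days by -2.45 ± 0.42 (adjusted p = 9.7e-05), for Chia by -2.0 ± 0.40 (0.000626) and for Arg1 by -1.64 ± 0.49 (0.0213). These were 3 of 9 genes with a change of the high dose effect, all downward, where 16.7% of all genes were called (5.49% higher, 11.2% lower; 32.8% of calls were higher, against 46% to 49.9% with processed signals, Cy5 alone or the authors' table).

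Arg1 on day 28 was -0.74, 0.63, 0.07, 0.16 and 1.31 in air and 0.41, 0.18, 0.16, -0.24 and 0.07 at the high dose, so the air rats spread wider than the exposed ones, and the high dose difference was -0.56 to 0.36 within slides. Chia was 6.36, 6.67, 6.12, 5.80 and 6.09 in air and 6.13, 4.87, 6.15, 5.66 and 5.58 at the high dose, a difference of -0.53 ± 0.28 (adjusted p = 0.369; -1.24 to -0.25 within slides). The low dose effect on Chi3l1 also changed between the days, by -1.94 ± 0.42 (adjusted p = 0.00799); this was 1 of 9 genes, where 1.95% of all genes were called (0.309% higher, 1.64% lower; 15.9% of calls were higher, and 31.4% after median centring). With Agilent's processed signals or the authors' deposited table the Chi3l1 call was lost, and none of the 9 genes was called. For Chia the change of the low dose effect was -1.34 ± 0.40 (adjusted p = 0.0867), and it passed with Cy5 alone (-2.27 ± 0.43, adjusted p = 0.00186).

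The high dose effect on the Retnla ratio did not pass the test of a change between the days. Its ratios on day 28 were 2.74, 4.57, 2.66, 3.24 and 4.80 in air, 3.84, 3.89, 3.60, 4.45 and 4.44 at the low dose and 4.62, 3.69, 4.66, 4.57 and 4.0 at the high dose. The air rats formed a low set of 3, on slides 1 and 2, and a high pair, both on slide 4, and both exposed groups lay inside their range. Within slides 1, 2 and 4 the high dose difference was 1.03, 1.01 and -0.07, and with slide as a block in the fit it was 0.65 ± 0.18 (adjusted p = 0.153). The high dose difference was 0.71 ± 0.33 (adjusted p = 0.317) and its change since day 6 was -0.70 ± 0.47, which did not pass (adjusted p = 0.349). With Cy5 alone that change was -2.61 ± 0.53 (adjusted p = 0.000621), and Cy3 alone changed by -2.23 ± 0.29 (adjusted p = 2.82e-05).

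On day 28 the high dose rats were again those with the lowest Tgm2. Its log2 ratios were 3.43, 3.22, 3.59, 3.47 and 3.27 in air, 3.37, 3.43, 3.48, 3.64 and 3.41 at the low dose and 2.87, 2.98, 3.20, 3.21 and 3.08 at the high dose. No high dose rat reached the lowest rat of either other group. The share of all genes whose groups do not overlap was not counted on either day. The difference from air was -0.33 ± 0.10 (adjusted p = 0.168; -0.61 to -0.37 within slides) and that from the low dose -0.40 ± 0.10 (adjusted p = 0.247, with 0.141% of all genes called, 0.0706% in each direction), so neither passed. The change of the high dose effect on Tgm2 between the days was 0.13 ± 0.15. The air rats themselves rose from day 6 to day 28 by 0.56 ± 0.10 (adjusted p = 0.00232), making Tgm2 the gene of the 9 that differed between the control groups, where 2.95% of all genes were called (63.2% of these calls were higher, and 23.6% after median centring). Age, time and separate sampling cannot be told apart there, and after median centring that call was lost.

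Il4r, Il13ra1, Arg2 and Stat6 had high dose differences on day 28 of -0.19 ± 0.15, 0.04 ± 0.09, -0.13 ± 0.13 and 0.02 ± 0.11. The widest Il4r values on that day were those of the high dose rats, 1.15, 1.44, 1.91, 2.02 and 1.24, against 1.71, 1.84, 1.95, 1.5 and 1.73 in air. Il13ra1 lay between 1.05 and 1.14 in the 5 air rats, and of the high dose rats 2 were above, 1 within and 2 below that range.

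The genes around these 10 were read from 16 lists of pathway and cell type genes, none of which holds any of the 10. Of 186 distinct genes tested from them, 68 were higher and 34 lower at the high dose on day 6 (21.1% and 15.4% over all genes), 32 and 6 at the low dose (4.97% and 1.75%), and none at either dose on day 28, where limma gave an unadjusted p below 0.05 for 30 and 16 of them. The lists were drawn up knowing earlier results of these data, so their counts are descriptions, to be read beside these shares over all genes.

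The ligands were mostly not well above background. Il4, Il13, Il9 and Il25 were well above background on 0 of 30 arrays and Il10 on 4. Of the 3 type 2 cytokines and alarmins tested, the epithelial alarmin Il33 fell at the high dose (-0.47 ± 0.16, adjusted p = 0.0196) and Areg did not pass (0.40 ± 0.39, adjusted p = 0.449). Il5, the cytokine that supports eosinophils, was well above background on all 30 arrays and stood at 0.09 ± 0.16 at the high dose (adjusted p = 0.717) and -0.03 ± 0.16 at the low dose. At the low dose Il33 was at 0.07 ± 0.16.

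Among 5 other receptor chains, 2 rose at the high dose: Crlf2, the receptor for thymic stromal lymphopoietin (1.08 ± 0.13, adjusted p = 2.08e-07), and the common gamma chain Il2rg (0.29 ± 0.11, adjusted p = 0.0301). None of the 5 passed at the low dose. Of 17 genes of Stat6 signalling and its regulators, 6 rose and 4 fell at the high dose, with a median of 0.17. Batf, a partner of AP-1 factors in lymphocytes and dendritic cells, rose (2.20 ± 0.13, adjusted p = 6.16e-13), and Pparg, known in alveolar macrophages and adipocytes, fell (-1.97 ± 0.20, adjusted p = 1.34e-08). Batf also rose at the low dose, by 1.18 ± 0.13, and Pparg fell there too (-1.24 ± 0.20, adjusted p = 0.00014). On day 28 Pparg was at 0.89 ± 0.20 at the high dose, which did not pass (adjusted p = 0.0592).

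The macrophage markers of alternative activation split. Of 18 tested, 10 rose and 6 fell at the high dose (median 0.56), and 7 rose and 2 fell at the low dose (median 0.14). The chemokines Ccl17 and Ccl22, which draw Ccr4-bearing lymphocytes, rose at both doses: Ccl17 by 3.28 ± 0.15 and 3.39 ± 0.15, Ccl22 by 2.79 ± 0.15 and 3.22 ± 0.15 (high and low dose). The mannose receptor Mrc1 was at -0.46 ± 0.22 at the high dose on day 6 (adjusted p = 0.101) and at 0.77 ± 0.22 on day 28 (adjusted p = 0.132). Among the 6 that fell, named after their values were seen, were Clec7a, the beta-glucan receptor (-1.10 ± 0.31, adjusted p = 0.0058), and Lyve1, a hyaluronan receptor of interstitial macrophages and lymphatic vessels (-1.40 ± 0.28, adjusted p = 0.000212).

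Of the classical activation genes, which are raised by interferon or bacterial products, 16 of 20 rose at the high dose and none fell (median 0.80), and 7 of 20 rose at the low dose. The interferon-induced chemokine Cxcl10 rose by 4.73 ± 0.27 at the high dose (adjusted p = 1.72e-13) and 1.59 ± 0.27 at the low dose. Its relative Cxcl11 was not well above background on any air array of day 6, and its log2 ratio was higher by 2.73 ± 0.11 at the high dose (6.62-fold, adjusted p = 3.71e-16). Read in the Cy5 channel alone, open to dye bias, Cxcl11 was at least 8.28-fold higher (mean log2 Cy5 9.31 against 6.23); the air level was taken as the higher of its own signal and the lowest signal well above background on each array. Inducible nitric oxide synthase Nos2, which uses the same substrate as Arg1, was higher by 0.39 ± 0.07 in log2 ratio (adjusted p = 0.000128) and at least 1.42-fold higher in Cy5 alone (mean log2 6.94 against 6.43), named after its value was seen.

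Around the arginases, 11 of 23 genes of arginine, polyamine and proline metabolism rose at the high dose and 5 fell (median 0.25), and 3 rose and 1 fell at the low dose. Odc1, which turns the ornithine made by arginase into putrescine, rose by 0.90 ± 0.11 (1.86-fold, adjusted p = 2.17e-07) at the high dose and 0.44 ± 0.11 at the low dose. Asl, which makes arginine, rose by 0.69 ± 0.09 (adjusted p = 2.86e-07) and 0.37 ± 0.09. Azin1, which protects ornithine decarboxylase from breakdown, fell at the high dose (-0.45 ± 0.16, adjusted p = 0.0295) and was at -0.59 ± 0.16 on day 28 (adjusted p = 0.125).

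Of 8 relatives of the chitinase, resistin and transglutaminase families, Chid1, a chitinase-domain protein (1.02 ± 0.07, adjusted p = 2.01e-11), and Retnlg, a resistin-like relative of Retnla (2.55 ± 0.29, adjusted p = 5.26e-08), rose at the high dose. Tgm1, the transglutaminase of barrier epithelia, fell (-0.48 ± 0.17, adjusted p = 0.031). Retnlg also rose at the low dose (1.22 ± 0.29, adjusted p = 0.00639), and its Cy3 did not differ (fold 1.09 at the high dose, adjusted p = 0.649), unlike that of Retnla. Of 13 epithelial genes of type 2 airway responses, 1 rose at the high dose and 2 fell, beside 21.1% and 15.4% over all genes: the anion exchanger Slc26a4 rose by 3.68 ± 0.13 (12.8-fold, adjusted p = 1.89e-17, with Cy3 up 1.25-fold), and the eosinophil chemokine Ccl11 fell (-1.86 ± 0.28, adjusted p = 4.8e-06).

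Markers of several other cell types moved beside these genes on day 6. At the high dose 11 of 17 macrophage and monocyte markers rose and none fell, with list means of 1.14 to 2.15 per rat against 0.60 to 0.81 in air; Siglec1 rose by 3.67 ± 0.31 and Itgam by 2.14 ± 0.19. Neutrophil markers rose in 6 of 9, with list means of 1.5 to 1.73 against 0.13 to 0.48 (S100a9 by 3.49 ± 0.36), and already at the low dose in 5 of 9, with means of 1.09 to 1.75. Of 13 eosinophil, mast cell and basophil markers none rose and 2 fell, Gata2 (-1.45 ± 0.23) and Kit (-0.74 ± 0.19), beside 21.1% and 15.4% over all genes. Epx, Prg3 and Il5ra, which define eosinophils, were well above background on 0 arrays. The eosinophil granule gene Prg2, from the same list, was well above background on all 5 air arrays and on 2 arrays at each dose on day 6 (high dose difference -0.24 ± 0.15, adjusted p = 0.211), and Siglec5 on all 30 arrays (0.22 ± 0.17, adjusted p = 0.323). Of 8 genes tested from the T helper 2 and innate lymphoid list, 3 rose and none fell, beside 21.1% and 15.4% over all genes. Icos and Cd3e were among the 3, and the list also holds general T cell genes such as Cd3e. From the same list, Ptgdr2, Ccr4 and Il17rb were well above background on 1, 3 and 3 arrays and were not tested. Il1rl1 was well above background on 5 air and 3 high dose arrays of day 6, and neither Il1rl1 nor Areg passed the test. Lung epithelium markers were present (list mean 4.81 to 5.86 on all day 6 arrays), with 1 of 15 higher and 3 lower, beside 21.1% and 15.4% over all genes, and 4 of 6 erythroid genes fell. The part of these cell types in the values of the 10 genes was not tested.

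**Figure D4:**
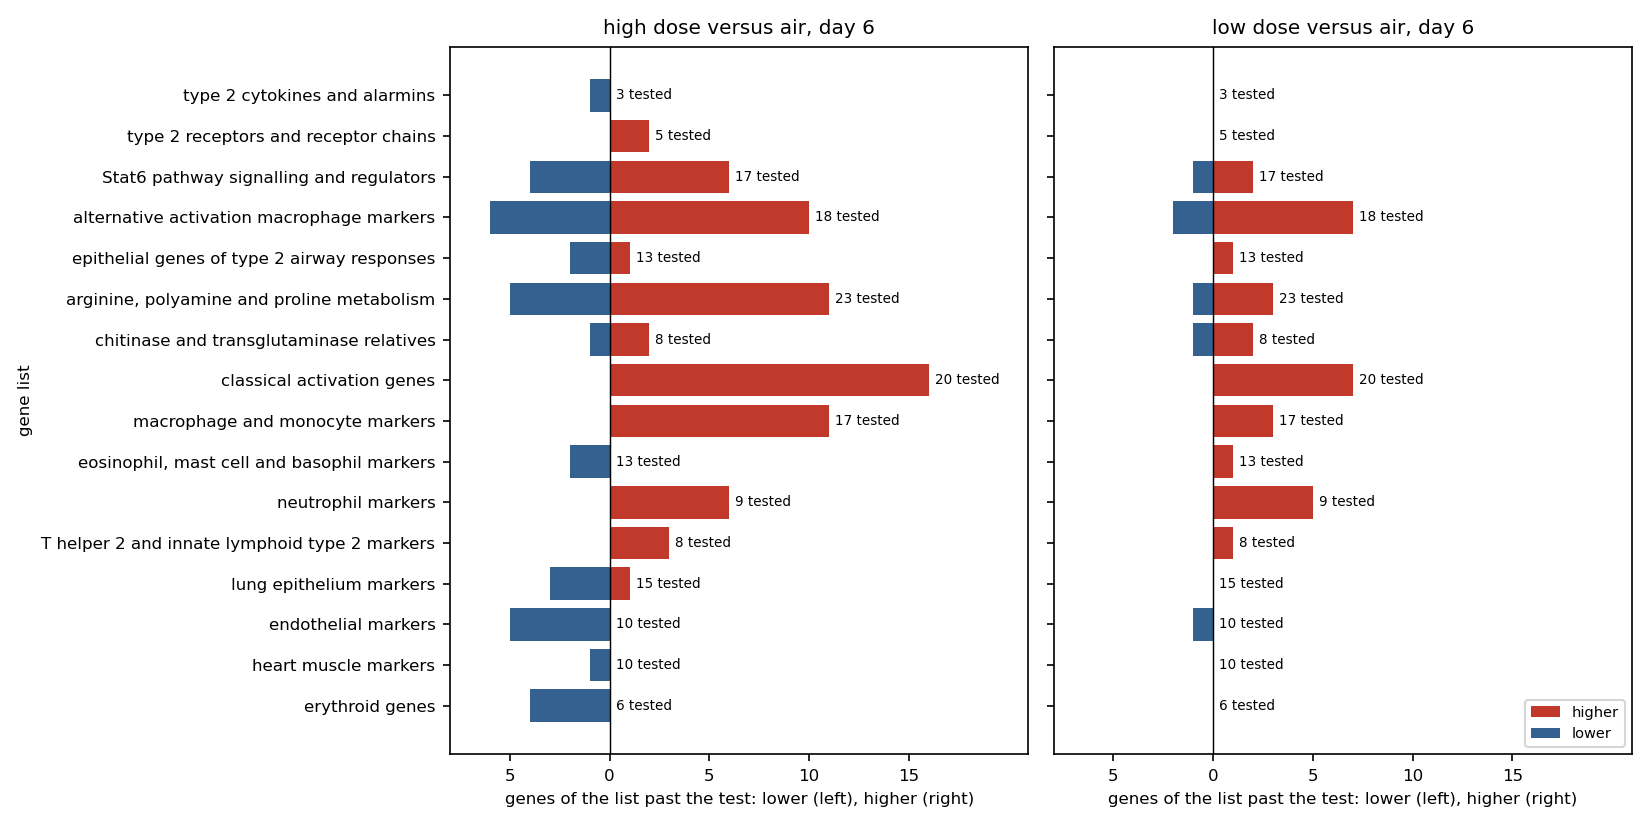
Number of genes of each list that passed an adjusted p of 0.05 on day 6, higher to the right and lower to the left, with the number tested beside each bar, at the high dose (left panel) and the low dose (right panel). Alternative activation markers hold 10 higher and 6 lower genes at the high dose, while classical activation genes hold 16 higher and none lower.

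The genes most like the 3 that moved furthest in ratio were named by Pearson correlation over the 30 rats, which share groups, slides and reference. For Chi3l1 these were the complement component C3 (r = 0.974), Atp13a4 (0.967) and the siderophore-binding protein Lcn2 (0.966); within the 10 air rats alone the values were 0.93, 0.729 and 0.635. For Chia they were the complement subunit C1qa (r = 0.872), Bpifa5 (0.872) and the epithelial factor Elf5 (0.869), with 0.482, 0.45 and 0.549 in the air rats, and Cy3 of C1qa and Bpifa5 rose too at the high dose, by 3.17-fold and 2.78-fold. For Arg1 they were C8h19orf38 (r = 0.888), Cebpg (0.872) and the protease inhibitor Cstb (0.87), with 0.349, 0.647 and 0.698 in air rats. Cy3 of C3 and Lcn2 also rose at the high dose, 1.54-fold and 2.51-fold.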

How the data were processed

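Whole-lung RNA of 30 rats, 5 in each of 6 dose and day groups taken from the labels, was measured on 2-colour arrays. Per the labels, 200 ng of each rat's RNA took Cy5 and the reference Cy3, without dye swap. The deposited intensities are scanner values from Agilent Feature Extraction 11.0.1.1, per the file headers. The authors' deposited table holds log2 ratios of unstated scale, centring and direction; it correlated at r = 0.997 to 1.000 with loess-normalized ratios made without background correction (slope 0.997 to 0.999), with column medians of -0.0314 to -0.00539, so its direction is Cy5 over Cy3. It served as an alternative.

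Here median intensities were background-corrected (normexp, offset 50) and loess-normalized within arrays in limma 3.58.1 (R 4.3.3). Control spots and outlier-flagged spots were left out and spots of a probe averaged. Of 30367 probes, 18005 matched 1 RefSeq gene symbol without accession versions and 12362 kept their accession. Probes well above background on at least 5 of 30 arrays were kept, the brightest for each gene. A linear model of the 6 groups, with empirical Bayes, tested 9 comparisons over 18421 genes (Benjamini-Hochberg, 0.05).

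Named genes are the 10, the 2 smallest p of each list at the high dose on day 6 and the smallest on day 28. The 3 genes most correlated with Chi3l1, Chia and Arg1 are also named, as are defining markers not well above background. Il5, Il1rl1, Prg2 and Siglec5 were named outside this rule, and others outside it are marked in the text. The genes and lists were chosen with earlier results of these data known. Fits of Cy3 alone, and the motifs TTGCNNAA and TATAAA, were added after seeing the data. On simulated data for the high dose comparison on day 6 (18421 genes), 33 of 67 genes changed by 0.5 log2 units were recovered, 64 of 67 changed by 1 and 66 of 66 changed by 2, with 5 false calls of 168. Only these genes were changed there, with independent noise and no slide effect. In the real comparison 36.5% of all genes were called, so these rates do not carry over to it. Other settings tried were slide as a block, other background corrections and scalings, other filters and probe rules, the groups in the fit and leaving out each rat. The replicates are separate rats. Promoter windows and their coordinates came from RefSeq tables on GRCr8; no sequence was read from a genome by coordinates.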

Additional observations from a re-analysis of the deposited data

Results flagged for a closer look

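4 differences between the day 6 and day 28 effects passed a test of the difference itself (an interaction term in limma, adjusted over all genes). The high dose effect changed by -2.45 for Chi3l1 (adjusted p = 9.7e-05), by -2.0 for Chia (0.000626) and by -1.64 for Arg1 (0.0213), and the low dose effect on Chi3l1 changed by -1.94 (0.00799), all in log2 units and towards 0 or below. The low dose call on Chi3l1 was lost with processed signals or the authors' deposited table. In 54 sets of 5 rats, 1 for each gene and group, no rat stood apart from the other 4 by Dixon's criterion. Chance passes that criterion in about 1 of 20 sets.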

How the results depend on the processing

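No paired analysis was possible because each rat number belongs to 1 group. For each dose against air and between the doses on day 6, no alternative fit changed the sign of a called gene. The difference of Arg1 between the doses on day 6 was, however, -0.34 within slide 1. In the comparison of the air groups and the changes between the days, signs were not compared setting by setting. The count of called genes at the high dose on day 6 was 6, 5 to 7 under other settings and 6 to 7 leaving out each rat. At the low dose on day 6 it was 3, but 1 with Agilent processed signals or median centring, and 1 to 3 leaving out each rat (1 without air rat 1 or low dose rat 50). Between doses on day 6 it was 3, but 1 with only the compared groups or median centring, 5 with Cy5 alone, and 1 to 3 leaving out each rat (1 without high dose rat 79 or low dose rat 49). For air day 28 against day 6 it was 0 with median centring in place of 1. For the change of the high dose effect it was 1 with processed signals in place of 3. For the change of the low dose effect (1 gene) it was 0 with processed signals or the authors' deposited table, 2 with Cy5 alone, and 1 to 2 leaving out each rat (2 without low dose rat 55 of day 28 or rat 48 of day 6). The causes were not tested. On day 28 the counts were 0 at each dose under every setting run.

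Differences near 0 changed sign. At the high dose on day 6, Arg2 was -0.01 without background correction, with median centring or Cy5 alone and -0.02 with the authors' deposited table; leaving out each rat gave -0.08 to 0.14 for Arg2 and -0.11 to 0.04 for Stat6. At the low dose on day 6, Tgm2 was -0.01 with slide as a block or the authors' deposited table, -0.04 with processed signals and -0.03 with median centring or Cy5 alone, and Il13ra1 -0.00 as the mean of its probes; leaving out each rat gave -0.09 to 0.06 for Tgm2 and -0.05 to 0.52 for Arg1. At the high dose on day 28, Il13ra1 was -0.17 as the mean of its probes, and leaving out each rat gave -0.43 to 0.08 for Arg1 and -0.04 to 0.12 for Stat6. At the low dose on day 28, Il13ra1 was 0.17 with median centring and 0.03 with Cy5 alone, and Stat6 0.15 with median centring, 0.01 with slide as a block and 0.00 with the authors' deposited table; leaving out each rat gave -0.08 to 0.03 for Arg2, -0.08 to 0.02 for Il13ra1 and -0.09 to 0.07 for Stat6.

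Over all genes, calls fell with median centring from 1238 to 573 at the low dose on day 6, from 2188 to 1008 between doses on day 6, from 543 to 127 between air groups, from 3084 to 1623 for the change of the high dose effect and from 359 to 159 for that of the low dose. Between air groups they were 1161 with only those groups in the fit and 365 with slide as a block. Median centring also moved the median of all genes, to 0.11 at the low dose on day 28, -0.15 between doses on day 28, -0.11 between air groups and 0.15 for the change of the low dose effect. Low signal limits Arg2 and Il13ra2, and the reference channel of Chi3l1 in air and in all groups of day 28.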
